A study of Rattus norvegicus with 6 samples.

Results

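Asrgl1 encodes an asparaginase-like hydrolase, and its transcript was read by 2 array probes in kidney cortex of 6 rats. It is 1 gene of the 12269 named genes that could be tested, and of 15284 named genes on the array. Both probes, A_44_P201077 and A_64_P002924, were found through their RefSeq accession, NM_145089 without its version. The gene was chosen by the p of its difference between the groups, one of the smallest in these same arrays. The values of this difference are therefore given as a description, with no test of it.

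The treated rats received phenolphthalein, a pH indicator dye formerly taken as a laxative, at 1000 mg/kg/day for 4 weeks, and the control rats received the vehicle, corn oil, for the same 4 weeks. Each group held 3 rats, and all 6 were male Sprague-Dawley animals obtained at 5 weeks of age. RNA of 1 rat, labelled with the dye Cy3, was hybridised to each 1-colour Agilent array. No gene was deleted or added in either group.

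The enzyme belongs to the N-terminal nucleophile hydrolases. It is made as a single chain that cuts itself into a pair of subunits, and the cut exposes the threonine that carries out catalysis. It splits L-asparagine into aspartate and ammonia, and it also splits isoaspartyl dipeptides, the remnants of proteins whose asparagine and aspartate residues have rearranged with age. In the rat it is also known as a sperm antigen. The proximal tubule, which fills much of the renal cortex, takes up amino acids and small peptides from the filtrate and releases ammonia from some of them.

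The 250 bases before the annotated start of Asrgl1 are shown because they lie just before the site where its transcript is annotated to begin. They come from RefSeq, lie at chr1:215456189-215456438 on the minus strand of GRCr8, and are written 5′ to 3′ with the one matched motif in capitals. The array design itself is annotated on rn4, and no coordinate of it is used.
Asrgl1 upstream: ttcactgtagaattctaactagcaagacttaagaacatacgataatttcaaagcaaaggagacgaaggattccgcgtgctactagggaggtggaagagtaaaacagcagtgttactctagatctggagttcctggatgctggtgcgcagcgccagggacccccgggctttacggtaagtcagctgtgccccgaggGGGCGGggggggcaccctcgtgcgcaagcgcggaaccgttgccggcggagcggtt

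The capitals mark a GC box, GGGCGG, whose first base lies 55 bases before the start. Of 33469 rat upstream windows of the same length, 30.5% hold this motif on either strand. Searched on both strands, 5 other motifs had 0 matches in the window. They were CCAAT (in 34.0% of all windows), the TATA box TATAAA (12.9%), the nuclear receptor half-site AGGTCA (14.1%), the antioxidant response core TGACNNNGC (10.1%) and the E-box CACGTG (5.59%). The GC box overlaps no other match. The window held 56.4% G and C, against a median of 51.2% over all windows. These matches describe letters and not binding.

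Each array's values were set relative to its 75th percentile, so that a log2 level of 0 is the 75th percentile of that array. Of 61657 probes, 64.8% to 72.1% gave a spot well above background, depending on the array, 0 were saturated, and Pearson's r between arrays over the tested items lay between 0.987 and 0.992. The arrays lay on 3 slides. Phenolphthalein replicate 1 had a slide of its own, phenolphthalein replicates 2 and 3 shared another, and the 3 vehicle arrays shared the third. By the file headers, each slide also had its own scan date. Slide, scan date and group can therefore not be told apart, and no comparison within a slide exists. Precision is limited by the 3 arrays in each group.

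Both Asrgl1 probes were well above background on all 6 arrays, and neither was saturated or marked as an outlier on any. The processed intensity of A_64_P002924 was 26638, 17657 and 18252 in the phenolphthalein rats, replicates 1 to 3, against 10662, 10286 and 8449 in the vehicle rats. That of A_44_P201077 was 5682, 3733 and 3699 in the phenolphthalein rats, against 2184, 2096 and 1740 in the vehicle rats. On both probes every phenolphthalein array was brighter than every vehicle array, before any scaling between arrays.

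On the scaled log2 level, A_64_P002924 stood at 4.67, 4.19 and 4.31 in the phenolphthalein rats, against 3.43, 3.33 and 3.15 in the vehicle rats. Its mean was 4.39 ± 0.25 in the phenolphthalein rats and 3.30 ± 0.14 in the vehicle rats (SD, n = 3 each). The log2 difference, phenolphthalein minus vehicle, was 1.09 with a limma standard error of 0.13, which is a 2.12-fold higher level in the phenolphthalein rats. The lowest phenolphthalein array, replicate 2, lay 0.76 above the highest vehicle array, replicate 1, on the log2 scale.

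On A_44_P201077 the scaled log2 level was 2.44, 1.95 and 2.01 in the phenolphthalein rats, against 1.15, 1.04 and 0.87 in the vehicle rats. Its mean was 2.13 ± 0.27 in the phenolphthalein rats and 1.02 ± 0.14 in the vehicle rats (SD, n = 3 each). The log2 difference was 1.11 (SE 0.14), a 2.17-fold higher level in the phenolphthalein rats. The smallest gap between the groups was 0.80 on the log2 scale.

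The order of the 6 arrays was the same on both probes. Phenolphthalein replicate 1 was highest, then phenolphthalein replicates 3 and 2, then vehicle replicates 1, 2 and 3. Phenolphthalein replicates 2 and 3 differed from each other by less than the SD of their group, on either probe. Across the 6 arrays the log2 distance between the probes varied by 0.07, between 2.23 and 2.30, and the probes' levels had a Pearson r of 0.999 (n = 6 arrays, whose groups stand apart). With the group means removed, r was 0.992. Both probes read the same RNA on the same arrays, so the second is a repeat of the measurement and not of the experiment.

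**Figure D1:**
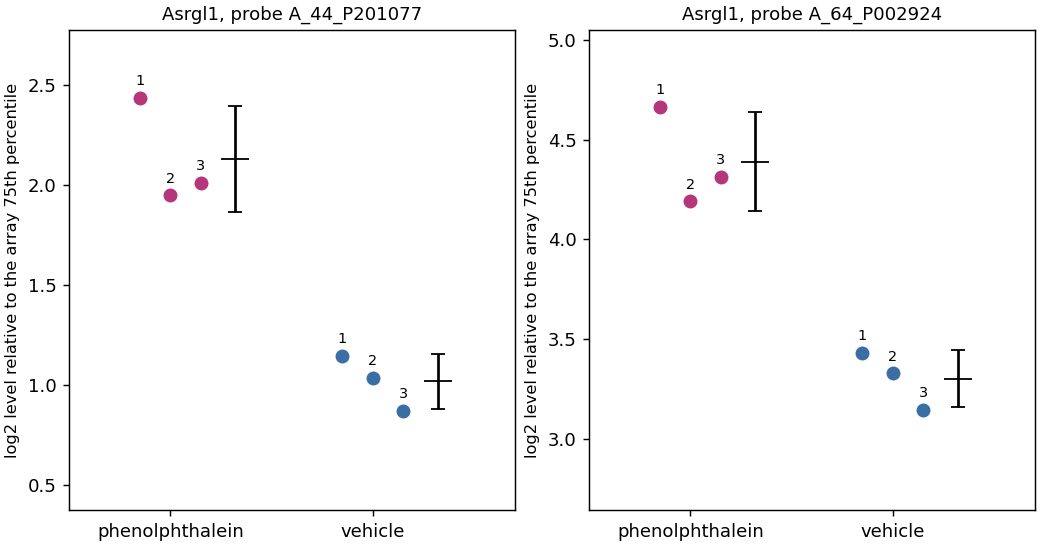
Log2 level of Asrgl1 relative to each array's 75th percentile (vertical axis) in the 3 phenolphthalein and the 3 vehicle arrays, 1 panel per probe, with replicate numbers beside the points. Bars show the mean ± SD of the 3 arrays. On A_64_P002924 the phenolphthalein arrays sit between 4.19 and 4.67 and the vehicle arrays between 3.15 and 3.43.

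Within the phenolphthalein group, replicate 1 exceeded the mean of replicates 2 and 3 by 0.41 on the log2 level of A_64_P002924 and by 0.46 on A_44_P201077. This array is also the one on its own slide, and what the slide contributed was not tested. Without it, the log2 difference of A_64_P002924 was 0.95. With the slide as a random block in the fit, it was 1.09 (SE 0.14). Every slide held arrays of a single group, so that fit cannot separate slide from group.

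The spread of Asrgl1 among rats of the same group was not small. Its within-group SD was 0.20 on the log2 level, against a median of 0.13 over the named genes, and 68.5% of the named genes had a smaller one. By size, 52 of 12269 named genes had a larger positive log2 difference, and in 21 of these 52 the groups did not overlap. A log2 difference of at least 1 was found in 64 named genes, and in 28 of these, Asrgl1 among them, the groups stood apart. Over differences of any size, the groups stood apart in the higher direction in 783 of 12269 named genes. The median log2 difference over all items was -0.02.

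Over all 34417 items, of which 12269 were named genes and 22148 probes without a gene name, 0% passed an adjusted p of 0.05 in the higher direction and 0% in the lower (limma, Benjamini-Hochberg adjustment, smallest adjusted p = 0.303). Asrgl1 is thus a gene that did not pass over all items. At an unadjusted p of 0.05, 1356 items were higher in the phenolphthalein rats (3.94%) and 1694 lower (4.92%). Groups that did not overlap were found in 6.64% of items in the higher direction and in 9.02% in the lower. The counts below are read against these shares.

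The closest relatives of Asrgl1 had differences smaller than the spread between rats. They are Aga, the lysosomal aspartylglucosaminidase, and Tasp1, the threonine aspartase that cuts the Mll protein; both are made and cut in the same manner. The log2 level of Aga was 2.07, 2.08 and 2.08 in the phenolphthalein rats, against 2.19, 2.00 and 2.20 in the vehicle rats. The difference was -0.06 (SE 0.07, limma adjusted p = 0.846), and the groups overlapped. The log2 level of Tasp1 was -0.29, -0.25 and -0.23 in the phenolphthalein rats, against -0.18, -0.32 and -0.29 in the vehicle rats. Its difference was 0.0044 (SE 0.07, limma adjusted p = 0.990), and its other probe stood at -0.02.

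Aspg, a cytosolic enzyme of another fold with asparaginase activity, had a log2 level of 5.34, 4.13 and 3.85 in the phenolphthalein rats, against 4.64, 4.15 and 4.12 in the vehicle rats. Its difference was 0.14 (SE 0.37, limma adjusted p = 0.933). As for Asrgl1, the highest array was phenolphthalein replicate 1, but the other phenolphthalein arrays lay within or below the vehicle range. Asns, the synthetase that makes asparagine, stood at -0.50, -0.90 and -0.85 in the phenolphthalein rats, against -0.69, -0.89 and -0.57 in the vehicle rats. Its difference was -0.04 (SE 0.14, limma adjusted p = 0.953), with overlapping groups. The sign of both differences turned when single arrays were left out, with -0.31 to 0.43 for Aspg and -0.16 to 0.037 for Asns.

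Genes that share the isoaspartyl substrate or its repair, with other peptidases of the tubule, gave a median log2 difference of 0.0044 over 21 tested members of 23 listed. In this list 0 members passed over all items, 1 was higher and 0 lower at an unadjusted p of 0.05, and the groups stood apart in 1, in the higher direction. That member was Pcmtd2, a relative of the isoaspartyl repair enzyme, at -1.43, -1.53 and -1.24 in the phenolphthalein rats, against -1.63, -1.71 and -1.69 in the vehicle rats. Its difference was 0.28 (SE 0.10, limma adjusted p = 0.532), while its other probe gave -0.24 and the median over both probes 0.019. Pcmt1, the methyltransferase that starts the repair of isoaspartyl residues, differed by 0.01 (SE 0.07), with its probes on either side of 0. Of the next smallest p, the methionine sulfoxide reductase Msra had a difference of -0.21, the prolidase Pepd -0.09 and the aminopeptidase Xpnpep2 -0.09, and all 3 had overlapping groups. Msra was at -0.34 without phenolphthalein replicate 1 and at -0.085 without phenolphthalein replicate 3. Pepd was at -0.054 without vehicle replicate 1, at -0.15 without vehicle replicate 3 and at -0.058 with quantile normalization. Xpnpep2 was at -0.15 without phenolphthalein replicate 1, at -0.052 without phenolphthalein replicate 2 and at -0.17 with normexp background correction.

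Enzymes of asparagine and aspartate metabolism had a median log2 difference of -0.02 over 25 tested members of 26 listed. Of these, 12 had a positive and 13 a negative difference, 0 passed over all items, and 0 in either direction reached an unadjusted p of 0.05. The groups stood apart in 2, both lower: Ass1, the argininosuccinate synthase that joins citrulline and aspartate, and Aldh18a1, an enzyme of proline synthesis. In both they barely did. The highest phenolphthalein and lowest vehicle arrays were at 5.92 and 5.94 for Ass1, and at -2.13 and -2.09 for Aldh18a1. The log2 level of Ass1 was 5.78, 5.92 and 5.89 in the phenolphthalein rats, against 5.98, 5.94 and 6.10 in the vehicle rats, a difference of -0.14 (SE 0.06, limma adjusted p = 0.584). Without vehicle replicate 3 it was -0.093. Aldh18a1 differed by -0.27 (SE 0.14), and by -0.13 without vehicle replicate 1, the array that stood apart from the other vehicle arrays at -1.67 against -2.09 and -2.08. Cad, the enzyme that brings aspartate into pyrimidines, differed by -0.14 (SE 0.08), and by -0.085 with the median over its probes. The alanine aminotransferase Gpt had a difference of 0.37 (SE 0.26) in which phenolphthalein replicate 1 stood at 1.73, against 0.59 to 0.85 in the other 5 arrays. Without that array its difference was 0.05, and without phenolphthalein replicate 3 it was 0.57.

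Transporters of asparagine, aspartate and glutamine gave a median log2 difference of 0.02 over 23 tested members of 28 listed. At an unadjusted p of 0.05, 1 was higher, 1 was lower and 0 passed over all items. The groups stood apart in 3 in the higher direction, Slc25a22, Slc1a4 and Slc38a7, and in 0 in the lower. In all 3 they barely did. The lowest phenolphthalein and highest vehicle arrays were at -4.996 and -4.997 for Slc1a4, and at 0.471 and 0.463 for Slc38a7. For Slc25a22 they were at 1.57 and 1.55. The higher one at that p was Slc25a22, a mitochondrial glutamate carrier, at 1.57, 1.72 and 1.77 in the phenolphthalein rats, against 1.55, 1.33 and 1.48 in the vehicle rats (difference 0.23, SE 0.09, limma adjusted p = 0.533). The lower one was Slc17a5, the lysosomal sialic acid exporter that also moves acidic amino acids, with overlapping groups and a difference of -0.36 (SE 0.14), while its other probe was at 0.03. Its difference was -0.23 without phenolphthalein replicate 3 and -0.16 with the median over its probes. The neutral amino acid exchanger Slc1a4 had a difference of 0.80 (SE 0.38), with phenolphthalein replicate 1 at -3.59 and the other phenolphthalein arrays at -5.00 and -4.74, against -5.00, -5.43 and -5.29 in the vehicle rats. The probe of Slc1a4 was dim, and well above background on 2 of the 3 vehicle arrays. The Slc1a4 difference was 0.37 without phenolphthalein replicate 1 and 0.35 with normexp. Slc38a4, a system A transporter, differed by 0.59 (SE 0.28), with overlapping groups. Its difference was 0.32 without phenolphthalein replicate 2 and 0.36 with normexp.

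The amino acid response is switched on through Atf4 when asparagine or other amino acids run short. Its list, which also holds Atf4 itself and Eif2ak4, had a median log2 difference of -0.07 over all 25 listed genes. Of these, 8 had a positive and 17 a negative difference, 0 passed over all items, and an unadjusted p of 0.05 was reached by 0 in the higher and 3 in the lower direction. The groups stood apart in 5 in the lower direction and in 1 in the higher. Ddit4, an inhibitor of mTORC1, had a log2 level of 1.83, 2.25 and 1.38 in the phenolphthalein rats, against 2.71, 2.59 and 3.29 in the vehicle rats. Its difference was -1.05 (SE 0.26, limma adjusted p = 0.454), and its 3 probes lay between -1.05 and -0.78. Cbs, which condenses serine with homocysteine, differed by -0.14 (SE 0.05) and the mitochondrial folate enzyme Aldh1l2 by -0.34 (SE 0.14). Aldh1l2 was at -0.19 with normexp and at -0.22 with the median over its probes. The transcription factor Atf5, with the groups apart in the higher direction, differed by 0.17 (SE 0.07, limma adjusted p = 0.567).

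**Figure D2:**
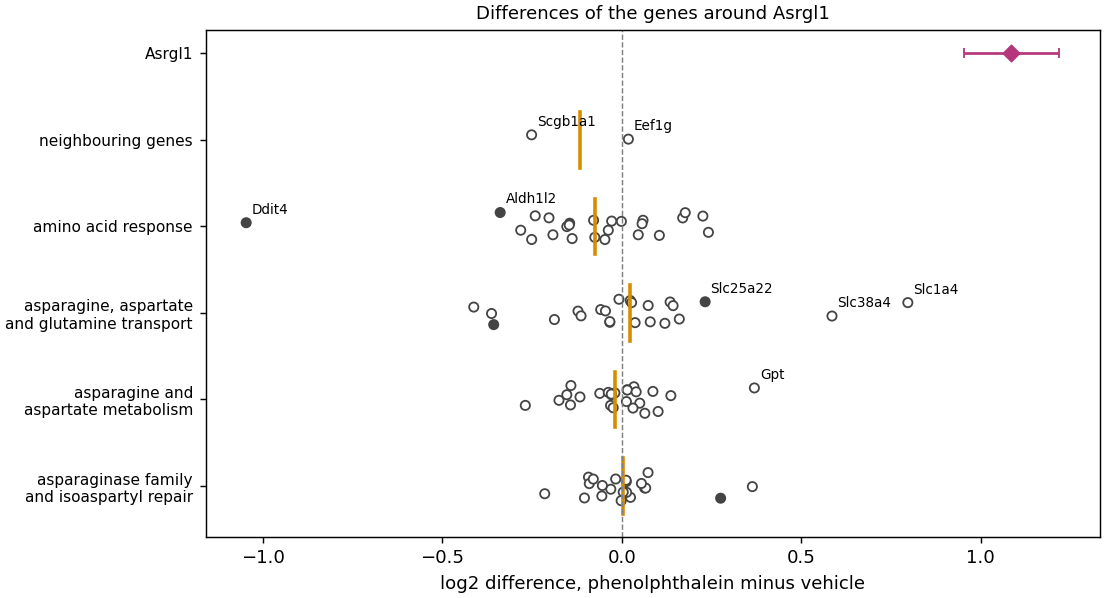
Log2 difference, phenolphthalein minus vehicle (horizontal axis), of Asrgl1 (diamond, with its limma SE) and of each tested gene (points) of the 5 gene lists. Filled points have an unadjusted p under 0.05, and vertical bars are list medians, which lie between -0.12 and 0.02.

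In the GRCr8 gene table, the 3 nearest protein-coding genes on one side of Asrgl1 are Scgb1a1, Ahnak and Eef1g, and those on the other are Scgb1d2l1, Scgb1d2 and Rps24-ps19. Of these 6, 3 had a probe matched by RefSeq accession and 2 were tested. Scgb1a1, the club cell secretory protein, had a log2 level of -4.13, -4.16 and -4.36 in the phenolphthalein rats, against -3.99, -3.91 and -4.00 in the vehicle rats. Its difference was -0.25 (SE 0.14, limma adjusted p = 0.645), of the opposite sign to that of Asrgl1, and with normexp it was -0.13. The probe of Scgb1a1 was dim, though well above background on every array. Eef1g, a subunit of the translation elongation factor complex, differed by 0.02 (SE 0.05), and its 5 probes lay between -0.04 and 0.09. The median of both genes was -0.12.

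The genes with a profile most like that of Asrgl1 were taken by Pearson's r over the 6 arrays, from 12255 named genes. In each of the 10 genes named here the groups stand apart, which r restates, and 66 genes had an r over 0.95 and 82 under -0.95. The highest r belonged to Agpat4, an acyltransferase of phospholipid synthesis (0.994), and Hebp1, a heme-binding protein (0.993). Pom121l2, a relative of a nuclear pore protein (0.986), the adhesion molecule Alcam (0.986) and Bfar, a membrane regulator of apoptosis (0.984), came next. Their log2 differences were 0.21 for Agpat4, 0.27 for Hebp1, 0.80 for Pom121l2, 0.30 for Alcam and 0.26 for Bfar, each smaller than that of Asrgl1. With normexp that of Bfar was 0.12 and that of Pom121l2 was 0.54. The other probe of Alcam had an r of 0.215.

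Agpat4 stood at 3.28, 3.16 and 3.20 in the phenolphthalein rats, against 3.03, 3.00 and 2.99 in the vehicle rats. Pom121l2 stood at -2.44, -2.63 and -2.60 in the phenolphthalein rats, against -3.34, -3.36 and -3.37 in the vehicle rats. As for Asrgl1, phenolphthalein replicate 1 was the highest array for both, which the choice by r favours. The r with group means removed was 0.948 for Agpat4, 0.975 for Hebp1, 0.931 for Pom121l2, 0.820 for Alcam and 0.987 for Bfar. The choice by r over the same arrays favours high values here too. These values are therefore no separate evidence that the genes vary together with Asrgl1 among rats.

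The lowest r, of opposite profile, belonged to the olfactory receptor gene Or4x11 (-0.994), the Rab GTPase-activating protein Tbc1d10b (-0.994) and the transcriptional repressor Hes7 (-0.993). The galactosyltransferase B3galt2 (-0.992) and the armadillo repeat gene Armcx6 (-0.992) followed. Armcx6 stood at -4.07, -3.85 and -3.78 in the phenolphthalein rats, against -3.04, -2.98 and -2.84 in the vehicle rats, a log2 difference of -0.95 (SE 0.13). The log2 differences of the others were -0.77 for Or4x11, -0.12 for Tbc1d10b, -0.23 for Hes7 and -0.64 for B3galt2. With normexp the difference was -0.53 for Armcx6 and -0.30 for Or4x11, a dim probe at -4.81 to -4.44 in the phenolphthalein rats and -3.85 to -3.74 in the vehicle rats. The other probe of Tbc1d10b had an r of -0.485.

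**Figure D3:**
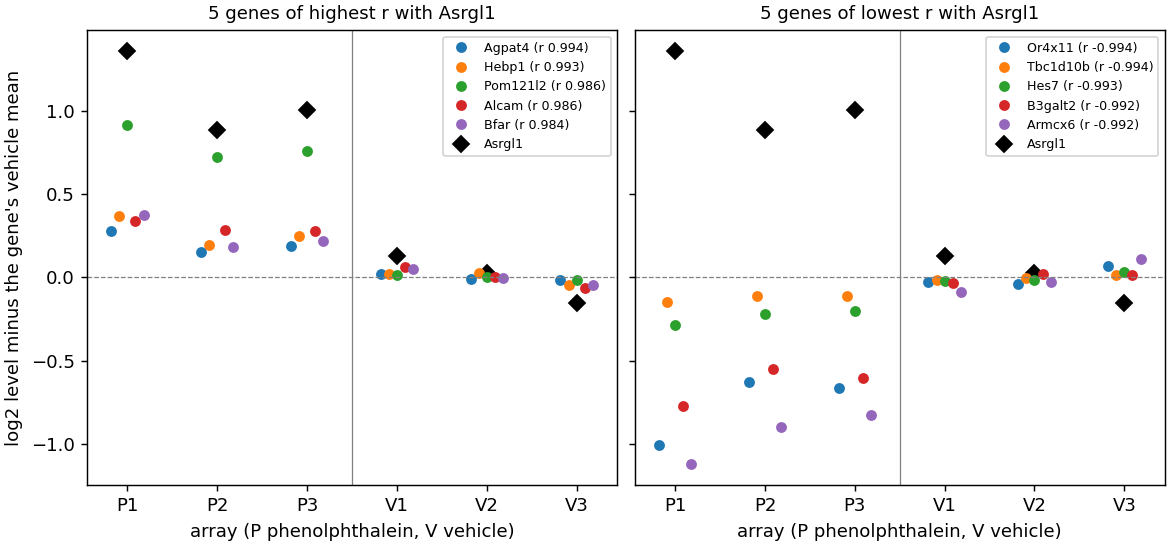
Log2 level of each gene minus its own vehicle mean (vertical axis) on the 3 phenolphthalein (P) and the 3 vehicle (V) arrays, for Asrgl1 (diamonds) and the 5 genes of highest (left) and of lowest (right) Pearson r with it. Phenolphthalein replicate 1 is the array farthest from the vehicle mean in all of them, which the choice by r favours.

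The tissue carried the markers of renal cortex. Slc34a1, the phosphate transporter of the proximal tubule, had a log2 level of 7.83 to 7.93 in the phenolphthalein rats, against 7.95 to 8.06 in the vehicle rats. Umod of the thick ascending limb stood at 8.75 to 8.86 in the phenolphthalein rats and at 8.68 to 8.82 in the vehicle rats. All 13 proximal tubule markers were tested, with a mean log2 level of 5.60 to 5.73 in the phenolphthalein rats and 5.73 to 5.74 in the vehicle rats and a median difference of -0.11. The 12 tested of 14 other cortex markers had a median difference of 0.08, and at an unadjusted p of 0.05, 1 was higher, 2 were lower and 0 passed over all items. The higher one was Podxl, the sialomucin podocalyxin (0.29, SE 0.10). The lower ones were Aqp2 and Slc12a3. Aqp2, the water channel of the collecting duct, differed by -0.58 (SE 0.20). Slc12a3, which carries sodium and chloride into distal tubule cells, differed by -0.39 (SE 0.05) on the probe that stood for it. The 3 probes of Slc12a3 lay between -0.39 and 0.47, and 2 of them had a positive difference. In all 3 genes the groups stood apart on the probe that stood for the gene. The part of these genes in the Asrgl1 difference was not tested. Slc12a1 and Pvalb were not tested.

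Leukocyte markers had a lower mean level in the phenolphthalein rats. Over 14 tested of 15 markers their mean log2 level was -0.57, -0.38 and -0.50 in the phenolphthalein rats, against -0.16, 0.20 and -0.20 in the vehicle rats. Of the 14, 13 had a negative difference and 1, Itgam on a dim probe, a positive one (0.27). At an unadjusted p of 0.05, 10 were lower, against 4.92% of all items, and 0 passed over all items. The groups overlapped in Itgam, Cd3e, Csf1r and Cd79b. The defining genes Ptprc, Cd68 and Cd3d were well above background on all arrays, and Ms4a1 was not tested. Phenolphthalein replicate 1, highest for Asrgl1, was lowest for this list, and the part of leukocytes in the Asrgl1 difference was not tested. In such bulk tissue, fewer cells of a type and less RNA per cell cannot be told apart.

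Liver markers had a median log2 difference of 0.41 over 18 tested of 20 markers, with 14 positive and 4 negative differences, so that most had the same sign as Asrgl1. Their mean log2 level was -0.20, 1.02 and -0.19 in the phenolphthalein rats, against 0.34, -0.23 and -0.62 in the vehicle rats, with overlapping groups. Albumin (Alb) was highest in phenolphthalein replicate 2, at 3.17, the phenolphthalein array in which Asrgl1 was lowest. Without that array the log2 difference of Asrgl1 was 1.18 (SE 0.13). The part of liver transcripts in the Asrgl1 difference was not tested. In the list 1 gene was higher and 0 lower at an unadjusted p of 0.05. It was F2, prothrombin, at 3.75, 2.67 and 2.90 in the phenolphthalein rats, against 1.60, 1.81 and 1.45 in the vehicle rats. Among the phenolphthalein arrays F2 was lowest in replicate 2, where Alb was highest. Of 10 sperm and testis markers, 6 were tested, and their mean log2 level was -3.61 to -3.20 in the phenolphthalein rats and -3.69 to -3.27 in the vehicle rats. Of these, 1, Prm2, was lower at an unadjusted p of 0.05, and Tnp1, Odf1, Akap4 and Gapdhs did not pass the filter on dim probes.

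The Asrgl1 log2 difference lay between 0.95 and 1.18 over 18 alternative analyses, which is 1.93-fold to 2.27-fold. Some of these analyses, such as the other filters, could not change it. The lowest value came without phenolphthalein replicate 1 and the highest without phenolphthalein replicate 2.

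**Figure D4:**
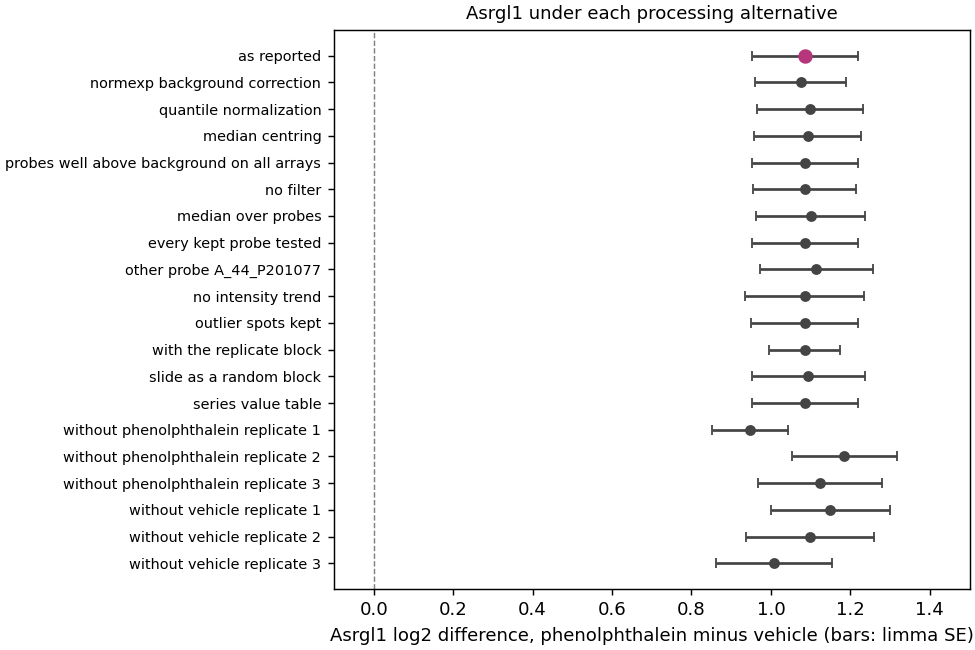
Log2 difference of Asrgl1, phenolphthalein minus vehicle, with its limma SE (horizontal axis) as reported (coloured point) and under each alternative (rows). All values lie between 0.95 and 1.18.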

How the data were processed

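Renal cortex RNA of 3 phenolphthalein and 3 vehicle rats was measured on 1-colour arrays. The deposited scanner files hold spot intensity, background-subtracted and detrended within each array by Agilent Feature Extraction 10.7.1.1, per the file headers, with none between arrays. The deposited value table holds a ratio to each array's 75th percentile, found by comparison with the scanner files. Each of its 6 columns matched another replicate of the same group, so within a group it is uncertain which replicate is which. All 6 were used as an alternative. Spot flags well above background, saturated and outlier (other columns) came from the same files.

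Here, log2 intensity minus the log2 of the 75th percentile of non-control probes was analysed, with outlier spots set to missing. Probes were named by RefSeq accession with the GRCr8 gene table (27460 probes with 1 symbol, 34197 with none), and kept if well above background on at least 3 arrays. A gene's probe with the highest mean stood for it. Differences were fitted in R 4.3.3 with limma 3.58.1 (lmFit, eBayes with trend, Benjamini-Hochberg over all items, threshold 0.05). The fit was also run on simulated data without slide effects, which says nothing on slide and group in these arrays. The named genes are Asrgl1, Aga, Tasp1, Aspg, Asns and Pcmt1, the 4 smallest p of each list, the 3 nearest genes on each side and the 5 highest and lowest r. For marker lists, examples are given. Same-numbered rats did not deviate together (correlations -0.00606, -0.0150 and 0.0250), and nothing in the labels pairs them. The gene and the lists were chosen with earlier results of these data known. The alternatives were other background corrections, normalizations, filters, probe rules, models, the value table, and leaving out each array.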

Additional observations from a re-analysis of the deposited data

How the results depend on the processing

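The Asrgl1 log2 difference kept its direction and moved by less than the SD between rats in all 18 alternatives and on its other probe, with 0.95 to 1.18 when single arrays were left out. The files hold no mean spot signal, so normexp used the median spot signal, giving 1.08. The replicate numbers do not pair the rats. With the replicate block the difference was 1.09 (SE 0.09), and the fit called 0 items in either direction. Single arrays left out gave 0 to 1 items higher and 0 to 1 lower. Without phenolphthalein replicate 2 they were Atp7a (2.39) and Ubd (-6.24), without phenolphthalein replicate 3 Prl3d4 (3.56), and without vehicle replicate 1 an unnamed probe (-5.58), all named after their values were seen. Asrgl1 was called in 0 of these. With all 6 arrays, each alternative called 0. List medians left the spread between rats in 4 instances. Leaving out 1 array gave medians of -0.055 to 0.0069 for asparagine and aspartate metabolism, -0.031 to 0.062 for transport and -0.14 to -0.043 for the amino acid response. Without a filter the median of the neighbouring genes was 0.019, over 3 genes in place of 2. Of 593 values of named genes under alternatives, 577 kept their direction and 16 changed sign, all in genes whose reported difference was below its SE. Eef1g was at -0.024 with normexp, and with the median over probes Eef1g was at -0.041, Pcmt1 at -0.058 and Tasp1 at -0.0079. Leaving out 1 array gave -0.022 to 0.072 for Pcmt1, -0.023 to 0.047 for Tasp1, -0.31 to 0.43 for Aspg, -0.16 to 0.037 for Asns and -0.013 to 0.049 for Eef1g. The causes were not tested.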
